A study of Mus musculus with 12 samples.

Results

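Whether a hypothalamic neuron inhibits or excites its targets is set by the transmitter it makes and packs, and the effect of GABA on the receiving cell is set by chloride transport. The genes examined here are 8 markers of these functions: Gad1, Gad2 and Slc32a1 for GABA, Slc17a6, Slc17a7 and Slc17a8 for glutamate, and Slc12a2 and Slc12a5 for chloride. They were taken by symbol from the 43280 rows of the gene count table. All 8 were found in it and all 8 were among the 13104 genes that passed the filter on low counts. The libraries came from the hypothalamus of male C57/Bl6 pups at postnatal day 6, with 6 controls and 6 pups exposed to modified maternal separation (MMS), and the labels name no genetic modification. MMS pups were removed from the dam for a session on consecutive days, were turned onto their backs by hand whenever they righted themselves, and were killed straight after the final session. Control pups were male littermates that did not undergo these sessions. Each library was made from the 3' ends of polyadenylated RNA, so values are given as CPM (counts scaled to a common library total) with no correction for transcript length.

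GABA is made from glutamate by glutamate decarboxylase, of which Gad1 encodes the GAD67 form and Gad2 the GAD65 form. It is loaded into synaptic vesicles by the transporter encoded by Slc32a1 (VGAT). Glutamate is loaded by VGLUT2 (Slc17a6), VGLUT1 (Slc17a7) or VGLUT3 (Slc17a8), and VGLUT2 is the form typical of hypothalamic glutamate neurons, whereas VGLUT1 is typical of the cerebral cortex. NKCC1 (Slc12a2) brings chloride into the cell and KCC2 (Slc12a5) takes it out. Neurons gain KCC2 as they mature, and GABA then changes from a depolarising to a hyperpolarising transmitter. The hypothalamus holds both kinds of neuron intermingled, with no layered arrangement such as that of cortex.

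Total counts per library ranged from 3218777 to 6560620. Of 13 hypothalamic markers 12 passed the filter and none was at 0 in all libraries, and the level summed over the list ran from 1064 to 1958 CPM in controls and from 1371 to 1890 CPM in MMS. On the first principal component of all genes, which held 30.4% of the variance, MMS 2 scored 57.8 and MMS 4 scored 46.3, while the scores of the other 10 libraries were -14.4 to -3.04. MMS 2 and MMS 4 had the lowest summed level of 6 ependymal markers, 19.3 and 35.3 CPM, where the other libraries had 60.2 to 161 CPM. Their sum of 6 neuronal markers was the lowest (4993 and 5073 CPM, against 5794 to 7065 CPM) through Tubb3 (1280 and 1307 CPM, against 2069 to 3461 CPM), and without it, a choice made after seeing the data, their sums of 3712 and 3767 CPM lay within the 3331 to 3869 CPM of the others. Their sum of 6 astrocyte markers was the highest (2275 and 2266 CPM, against 1592 to 2016 CPM), and without Slc1a3, likewise chosen later, it was 1592 and 1614 CPM against 1193 to 1580 CPM, while the astrocyte marker Gfap was at its lowest in them (42.4 and 42.6 CPM, against 69.2 to 161 CPM). Of the hypothalamic markers, these libraries had the lowest Npy (33.6 and 34.1 CPM, against 58.4 to 225 CPM) and Agrp (0 and 0.709 CPM, against 2.58 to 34.3 CPM) and the highest Pmch (635 and 929 CPM, against 195 to 500.2 CPM). The part of these marker levels in the results was not tested, and values that differ by more than 1.5 times without MMS 2 and MMS 4 are given both ways. In bulk tissue fewer cells of a type and less RNA per cell cannot be told apart.

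None of the 8 genes differed between MMS and control pups past an edgeR adjusted p of 0.05. The same was true of all genes (0% of 13104, with 1190 at an unadjusted p under 0.05 and 7 past the threshold in DESeq2), and the adjusted p of the 8 lay between 0.543 and 0.927. At an unadjusted p under 0.05 in edgeR there were 3 of the 8, where the share over all genes was 9.08%. Of these, Gad1 and Gad2 had higher means in MMS (4.68% of all genes were past this limit in that direction) and Slc17a7 had a lower mean (4.40% in that direction). The groups overlapped in each of the 8 genes, and 0.389% of all genes showed no overlap. Without MMS 2 and MMS 4 the number at an unadjusted p under 0.05 was 0 of 8, against 5.03% of all genes in that fit.

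Relative to their means, Gad1 and Gad2 varied more among MMS pups than the other members outside Slc17a7 and Slc17a8. Gad1 (2:70553072-70602014, plus strand, build mm10) had a lowest, median and highest value of 129, 147 and 220 CPM in controls and of 145, 188 and 317 CPM in MMS. The values of MMS 2 and MMS 4 were 317 and 282 CPM, above every control, and the other 4 MMS libraries lay within the range of the controls. The control mean was 157 ± 32.5 CPM and the MMS mean was 213 ± 70.8 CPM (SD, n = 6 per group), and the log2 fold change came to 0.44 (SE 0.19; edgeR adjusted p = 0.543). Without MMS 2 and MMS 4 the log2 fold change came to 0.12 (SE 0.13; edgeR adjusted p = 0.964).

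Gad2 (2:22622205-22693874, plus strand) had the same 2 libraries at the top. The lowest, median and highest values of the gene were 74.2, 126 and 190 CPM in controls and 118, 163 and 409 CPM in MMS. MMS 2 had 409 CPM and MMS 4 had 291 CPM, and the remaining MMS values were within the range of the controls. The fitted log2 fold change came to 0.73 (SE 0.32; edgeR adjusted p = 0.544), with means of 130 ± 38.9 and 216 ± 112 CPM (SD, n = 6 per group). It was 0.46 without MMS 2 alone and 0.20 (SE 0.23; edgeR adjusted p = 0.964) without both libraries. The coefficient of variation of Gad2 was 29.8% in controls and 51.7% in MMS, and that of Gad1 was 20.7% and 33.2%.

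Slc32a1 (2:158610767-158615748, plus strand), whose product fills vesicles with the GABA that the decarboxylases make, was not high in MMS 2 and MMS 4. From lowest through median to highest, its values were 306, 378 and 468 CPM in controls and 335, 387 and 600 CPM in MMS. MMS 2 (407 CPM) and MMS 4 (335 CPM) lay inside the range of the controls, and the only library above it was MMS 3. On the log2 scale MMS minus control was 0.17 (SE 0.13, 95% interval -0.11 to 0.45; edgeR adjusted p = 0.691), and it was 0.04 without MMS 3 and 0.25 without MMS 2 and MMS 4. Dividing the summed CPM of Gad1 and Gad2 by that of Slc32a1 within each library gave 0.662 to 0.875 in controls. This ratio was 1.78 in MMS 2 and 1.71 in MMS 4, and 0.602 to 0.955 in the other 4 MMS libraries.

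Sequences before a RefSeq start of these 3 genes are shown because in MMS 2 and MMS 4 both decarboxylase genes were above all controls and Slc32a1 was not. The sequences are those before the RefSeq start on GRCm38.p6, up to the first base that GENCODE places in an exon of the gene. They lie at chr2:70561879-70562041 for Gad1, chr2:22622077-22622204 for Gad2 and chr2:158610508-158610757 for Slc32a1, all on the plus strand. The Gad1 stretch lies inside the Gad1 interval given above, before an internal start, whereas those of Gad2 and Slc32a1 precede the interval of their gene. Capitals mark a match to the TATA box listed in the next paragraph, read on the other strand.
Gad1: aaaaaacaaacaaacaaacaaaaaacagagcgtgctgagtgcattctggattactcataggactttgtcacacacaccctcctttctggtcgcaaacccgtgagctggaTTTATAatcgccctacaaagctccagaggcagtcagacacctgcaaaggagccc
Gad2: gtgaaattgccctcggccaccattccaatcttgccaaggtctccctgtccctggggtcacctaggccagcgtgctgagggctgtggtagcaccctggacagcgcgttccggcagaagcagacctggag
Slc32a1: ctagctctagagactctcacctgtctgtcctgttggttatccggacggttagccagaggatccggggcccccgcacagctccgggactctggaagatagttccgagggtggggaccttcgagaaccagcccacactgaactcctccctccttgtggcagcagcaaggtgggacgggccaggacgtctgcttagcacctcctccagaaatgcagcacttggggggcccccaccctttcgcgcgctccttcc

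The motifs were searched on both strands in the full 250 bases before each RefSeq start. They were the cyclic AMP response element TGACGTCA (present in 1.55% of 32851 windows), the AP-1 site TGANTCA (6.75%), the NBRE of the NR4A receptors AAAGGTCA (1.34%), the homeodomain core TAATTA (4.84%), the TATA box TATAAA (12.4%), the CAAT box CCAAT (33.8%) and the GC box GGGCGG (32.7%). The Gad1 window held 1 TATA match, which is on the minus strand, and 1 GC box, which begins 8 bases before the start and outside the stretch printed above. The Gad2 window held 1 CAAT box, 226 bases before the start, which is in the stretch above in lower case. In the Slc32a1 window none of the 7 motifs was matched. A match is a run of letters only, and a missing match says nothing of sites elsewhere.

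**Figure D1:**
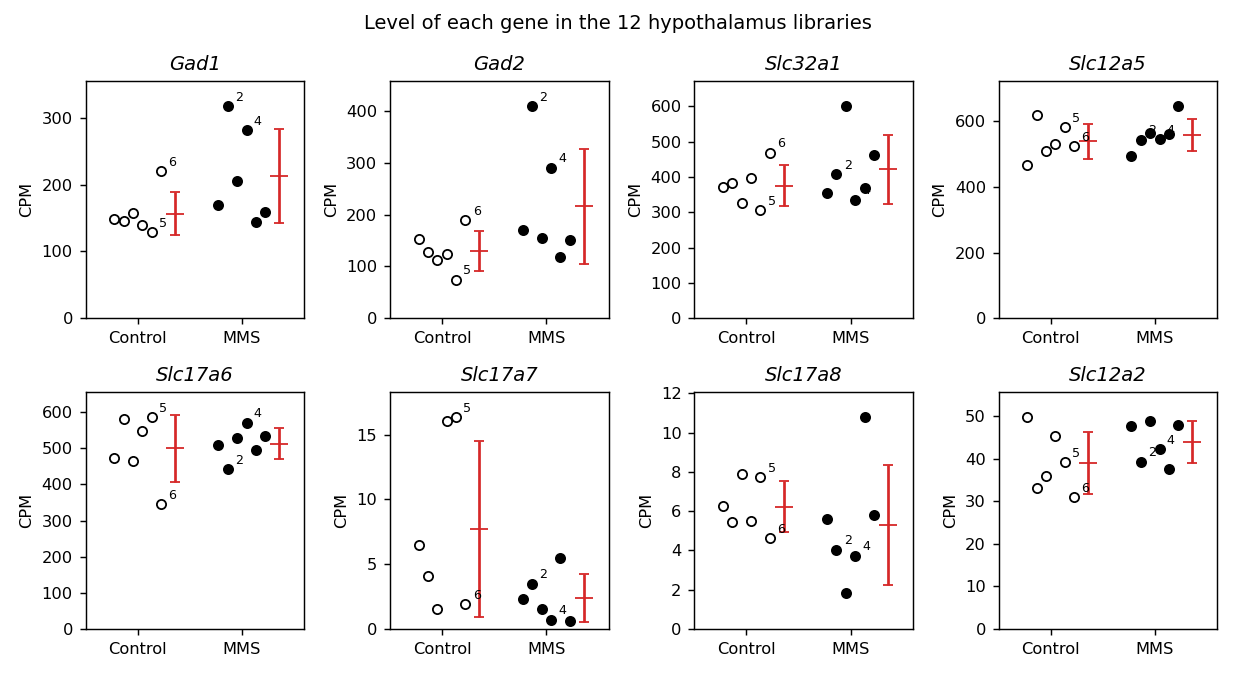
Level of each of the 8 genes in CPM (vertical axis, from 0) in the 6 control libraries (open circles) and the 6 MMS libraries (filled circles), with the mean and SD of each group in red. Digits mark control replicates 5 and 6 and MMS replicates 2 and 4. MMS 2 and MMS 4 are the highest points for Gad1 (317 and 282 CPM) and Gad2 (409 and 291 CPM) but lie within the controls for Slc32a1.

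The principal glutamate marker, Slc17a6 (7:51622006-51671119, plus strand), had overlapping levels in the groups. Its lowest, median and highest values were 345, 511 and 586 CPM in controls and 442, 519 and 570 CPM in MMS. All 6 MMS values lay within the range of the controls, and MMS 2 and MMS 4 had the lowest and the highest value of their group. The log2 fold change was 0.04 (SE 0.12, 95% interval -0.20 to 0.28; edgeR adjusted p = 0.927). It was -0.04 without control 6, the library with the lowest value.

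Slc17a7 (7:45163949-45176142, plus strand) was scarce, with 2 to 106 counts per library and 301 in all. The lowest, median and highest values of the gene were 1.51, 5.27 and 16.4 CPM in controls and 0.644, 1.93 and 5.49 CPM in MMS. Control 5, with the highest value, and control 4 stood above all other libraries, and MMS 4 and MMS 6 lay below every control. The fitted log2 fold change was -1.67 (SE 0.66, 95% interval -3.09 to -0.25; edgeR adjusted p = 0.543), the most negative of the 8. It was -1.27 without control 5 and -1.52 (SE 0.87; edgeR adjusted p = 0.961) without MMS 2 and MMS 4.

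VGLUT1 is also the vesicular transporter of most cortical glutamate neurons, so telencephalic markers are given beside Slc17a7. Of 6 such markers 4 passed the filter, 0 were at 0 in all libraries, and the level summed over the list ran from 31.5 to 56.0 CPM in controls and from 34.2 to 62.9 CPM in MMS. Neurod2, a transcription factor of maturing cortical excitatory neurons, was at 9.40 and 8.48 CPM in control 4 and control 5. It was also at 9.23 CPM in control 3, where Slc17a7 was at 1.51 CPM, and at 0.908 to 6.86 CPM in MMS. The part of telencephalic tissue in the level of Slc17a7 was not tested.

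Slc17a8 (10:89574020-89621253, minus strand), the transporter of a few scattered neuron types, was as scarce, with 6 to 55 counts per library. Its values spanned 4.63 to 7.88 CPM in controls and 1.82 to 10.8 CPM in MMS, with 3 MMS libraries below and 1 above all controls. On the log2 scale MMS minus control was -0.22 (SE 0.31, 95% interval -0.87 to 0.43; edgeR adjusted p = 0.827). Leaving out 1 library moved it between -0.57 (MMS 5) and -0.06 (MMS 3), and leaving out MMS 2 with MMS 4 gave -0.02.

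Slc12a5, which encodes the chloride extruder KCC2 (2:164960802-164999731, plus strand), was the most abundant of the 8 genes and the least variable among controls. From lowest through median to highest, its values were 467, 527 and 620 CPM in controls and 496, 553 and 645 CPM in MMS. MMS 6 alone lay above the controls and no MMS library lay below them. The log2 fold change was 0.05 (SE 0.10, 95% interval -0.14 to 0.25; edgeR adjusted p = 0.864). Among MMS pups its coefficient of variation was 8.71%, beside 8.45% for Slc17a6.

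Slc12a2 (18:57878678-57946821, plus strand), which encodes the chloride importer NKCC1, was at a far lower level. It measured 31.0, 37.5 and 49.7 CPM (lowest, median, highest) in controls and 37.7, 45.0 and 48.8 CPM in MMS. All MMS values were inside the range of the controls. The fitted log2 fold change was 0.17 (SE 0.13, 95% interval -0.11 to 0.44; edgeR adjusted p = 0.686). NKCC1 is not restricted to neurons, and in the brain it is also made by oligodendrocyte lineage cells and choroid plexus. The 6 oligodendrocyte lineage markers summed to 683 to 998 CPM in controls and 734 to 1005 CPM in MMS. The 5 choroid plexus markers summed to 1762 CPM in control 3, 42.4 CPM in control 4 and 9.22 to 15.6 CPM elsewhere. Ttr alone was at 1735 CPM in control 3 and 35.5 CPM in control 4. Slc12a2 was at 35.9 CPM in control 3.

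**Figure D2:**
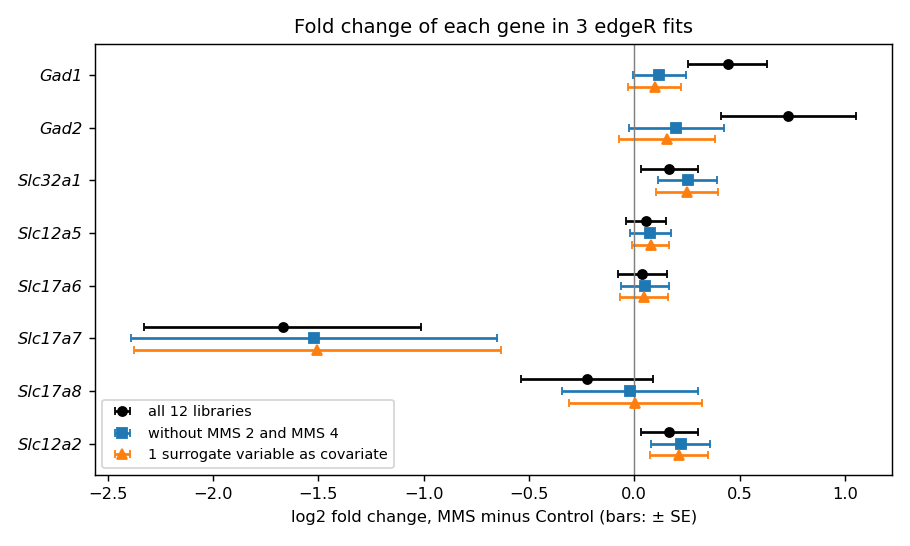
Log2 fold change of MMS minus Control (horizontal axis, bars are ± 1 SE) for each gene in the fit of all 12 libraries (circles), without MMS 2 and MMS 4 (squares) and with 1 surrogate variable as a covariate (triangles). Gad1 and Gad2 move from 0.44 and 0.73 to 0.12 and 0.20 when MMS 2 and MMS 4 are left out, while Slc12a5 and Slc17a6 stay within 0.1 of 0 in all 3 fits.

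In the order of mean control level the genes ran Slc12a5, Slc17a6, Slc32a1, Gad1, Gad2, Slc12a2, Slc17a7 and Slc17a8. Neighbours that kept their order in all 12 libraries were Slc32a1 over Gad1, Gad2 over Slc12a2, and Slc12a2 over Slc17a7. Slc12a5 exceeded Slc17a6 in 7 of 12 libraries, and Slc17a6 exceeded Slc32a1 in 10. Gad1 exceeded Gad2 in 5 of 6 controls and in 3 of 6 MMS libraries. Slc17a7 exceeded Slc17a8 in 3 controls and in 0 MMS libraries, and the ranges of this last pair overlapped in controls. Slc12a5, Slc17a6 and Slc32a1 ranked 226, 255 and 371 by mean level among the 13104 genes tested, and Slc17a7 ranked 11412.

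The balance of the transmitter classes was described by the summed CPM of the 3 GABA genes over that of the 3 glutamate genes. The lowest, median and highest ratios were 0.834, 1.21 and 2.50 in controls and 1.23, 1.51 and 2.52 in MMS. The groups overlapped and the highest values of the groups, in control 6 and MMS 2, were alike. On the log2 scale the mean was 0.37 ± 0.53 in controls and 0.68 ± 0.37 in MMS (SD, n = 6 per group), and it was 0.53 ± 0.23 in the 4 MMS libraries left without MMS 2 and MMS 4 (n = 4). The difference of 0.31 became 1.03 when the mean log2 CPM of each class replaced the sum, which gives the scarce Slc17a7 and Slc17a8 the weight of Slc17a6. No test was made, since the members were chosen with earlier results known.

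Control 5 and control 6 were at opposite ends of this balance. Control 6 had the highest Gad1 (220 CPM), Gad2 (190 CPM) and Slc32a1 (468 CPM) of the controls and the lowest Slc17a6 (345 CPM). Control 5 had the lowest Gad1 (129 CPM), Gad2 (74.2 CPM) and Slc32a1 (306 CPM) of the controls and the highest Slc17a6 (586 CPM). The summed level of 7 transcription factors of GABA neurons was 353 CPM in control 6 and 141 CPM in control 5, the highest and the lowest of all 12 libraries. For 7 transcription factors of hypothalamic glutamate neurons the order was the opposite, with 87.2 CPM in control 6 and 276 CPM in control 5, again the extremes of the 12. Hypothalamic markers summed to 1958 CPM in control 6 and 1064 CPM in control 5, but not all followed the sum, since Oxt was at 422 and 103 CPM and Npy was at 143 and 225 CPM. In MMS 2 and MMS 4, where Gad1 and Gad2 were highest, the transcription factors of GABA neurons summed to 236 and 200 CPM, within the range of the controls. The part of the dissected area in these values was not tested.

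The ratio of Slc12a5 to Slc12a2, a common measure of the maturation of chloride extrusion, overlapped between the groups. Its lowest, median and highest values were 9.39, 14.5 and 18.7 in controls and 10.4, 13.2 and 14.9 in MMS, and all MMS libraries lay within the controls. The log2 mean was 3.80 ± 0.36 in controls and 3.67 ± 0.19 in MMS (SD, n = 6 per group). The ratio of Gad2 to Gad1 was 0.577 to 1.03 in controls and 0.753 to 1.29 in MMS, with MMS 2 (1.29) and MMS 4 (1.033) above all controls, the latter by a margin smaller than the spread between controls.

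**Figure D3:**
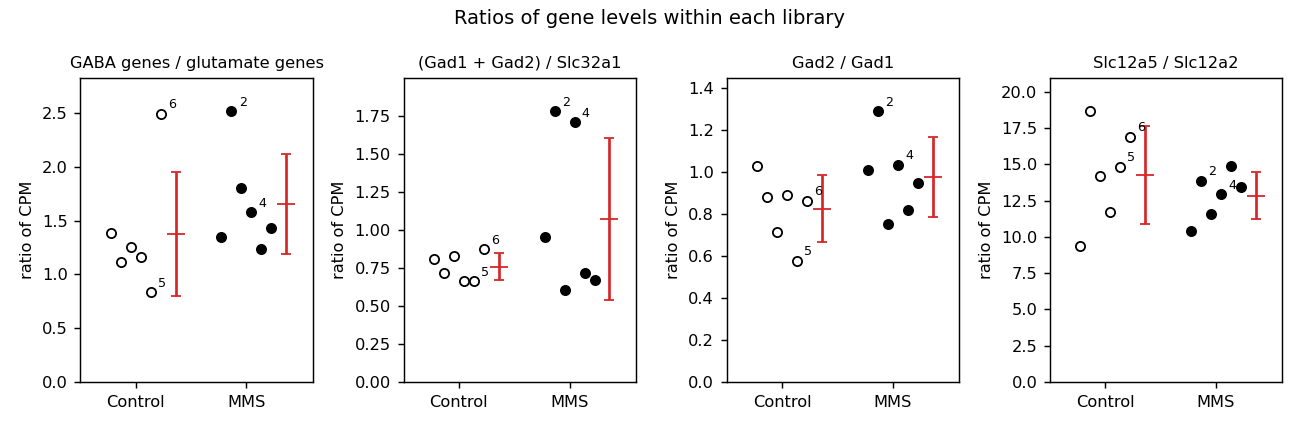
Ratios of CPM within each library (vertical axes, from 0) for control (open circles) and MMS (filled circles) pups, with group mean and SD in red and digits for control replicates 5 and 6 and MMS replicates 2 and 4. The decarboxylases relative to Slc32a1 are at 1.78 and 1.71 in MMS 2 and MMS 4 and below 1 in the other 10 libraries, and the Slc12a5 to Slc12a2 ratio of every MMS library lies within the controls.

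Other genes of the same pathways were taken from 6 lists with 49 genes, of which 45 passed the filter. Past the threshold there were 0 (edgeR), and at an unadjusted p under 0.05 there were 6 higher and 1 lower in MMS, against 4.68% and 4.40% of all genes. The median log2 fold change was 0.10 over these 45 genes and 0.0009 over all genes tested. Without MMS 2 and MMS 4 there were 3 at an unadjusted p under 0.05, among them Glul and Fezf1, against 5.03% of all genes in that fit.

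Of 5 tested genes for GABA breakdown and plasma transport, 1 was at an unadjusted p under 0.05 (9.08% of all genes). The median log2 fold change was 0.17. Abat, the transaminase that breaks GABA down, differed by 0.28 on the log2 scale (SE 0.13; edgeR adjusted p = 0.544). It was at 193 CPM in both MMS 2 and MMS 4, 109 to 153 CPM in controls and 120 to 130 CPM in the other 4 MMS libraries. Abat thus stood above all controls in the same libraries as Gad1 and Gad2, and its log2 difference was 0.06 without them. For Aldh5a1, the enzyme after Abat in GABA breakdown, the log2 fold change came to 0.14 (SE 0.11; edgeR adjusted p = 0.682), and it was 0.03 without MMS 2 and MMS 4.

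Among 9 tested genes for glutamate and glutamine metabolism, the median log2 fold change was -0.0037. An unadjusted p under 0.05 was found for 1 of them (9.08% of all genes). This was Glul, glutamine synthetase, the astrocyte enzyme that recycles transmitter glutamate. The lowest, median and highest values of the gene were 392, 463 and 510 CPM in controls and 488, 599 and 633 CPM in MMS, with 5 of 6 MMS libraries above all controls. On the log2 scale MMS minus control was 0.31 (SE 0.10; edgeR adjusted p = 0.518). MMS 2 (488 CPM) and MMS 4 (517 CPM) had the lowest Glul of the MMS group, and without them the log2 fold change was 0.41 (edgeR adjusted p = 0.129). Glul was in this respect unlike Gad1 and Gad2, whose differences shrank on leaving these libraries out. For Got2, the mitochondrial aspartate transaminase, the difference was 0.15 (SE 0.11; edgeR adjusted p = 0.673).

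Of 4 glutamate uptake transporters, 1 was at an unadjusted p under 0.05 (9.08% of all genes). Slc1a6, which encodes EAAT4, was at 81.4 to 94.7 CPM in controls and 52.1 to 96.6 CPM in MMS, with 4 MMS libraries below all controls (log2 fold change -0.30, SE 0.13; edgeR adjusted p = 0.543). Without MMS 2 and MMS 4 it was -0.17 and no longer at an unadjusted p under 0.05. The astrocyte transporters Slc1a3 (GLAST, 0.20, SE 0.12) and Slc1a2 (GLT-1, 0.15, SE 0.10) had edgeR adjusted p-values of 0.610 and 0.642. Slc1a3 was at 683 and 652 CPM in MMS 2 and MMS 4, against 399 to 522 CPM in controls. Without these libraries the log2 difference was -0.0047 for Slc1a3 and 0.07 for Slc1a2.

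The 13 tested genes for other chloride transport and its kinases had a median log2 fold change of 0.09. At an unadjusted p under 0.05 there were 3, all higher in MMS (4.68% of all genes in that direction). Stk39 (SPAK) and Oxsr1 (OSR1) encode the kinases that activate NKCC1 and inhibit KCC2, and Slc4a10 encodes a sodium-dependent chloride and bicarbonate exchanger of neurons. Their log2 fold changes were 0.38 (SE 0.15), 0.37 (SE 0.18) and 0.35 (SE 0.13), with edgeR adjusted p-values of 0.543 to 0.544. Stk39 was at 74.9 and 52.9 CPM in MMS 2 and MMS 4 and at 31.2 to 46.9 CPM in controls. Without these libraries the log2 fold changes were 0.15 for Stk39, 0.16 for Slc4a10 and 0.36 for Oxsr1. In that fit none of them was at an unadjusted edgeR p under 0.05, against 5.03% of all genes.

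Among the transcription factors of GABA neurons, 0 of 7 were at an unadjusted p under 0.05 (9.08% of all genes). For the homeobox gene Dlx6 the estimate was 0.44 (SE 0.27; edgeR adjusted p = 0.608) on the log2 scale, and it was 0.10 without MMS 2 and MMS 4. Of the factors of glutamate neurons, Fezf1 (0.43, SE 0.19; edgeR adjusted p = 0.543) was the only 1 of 7 at an unadjusted p under 0.05. Nr5a1, of the ventromedial nucleus, had -0.84 (SE 0.52), or -0.34 without MMS 2 and MMS 4, and Sim1, of the paraventricular nucleus, had 0.26 (SE 0.18).

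**Figure D4:**
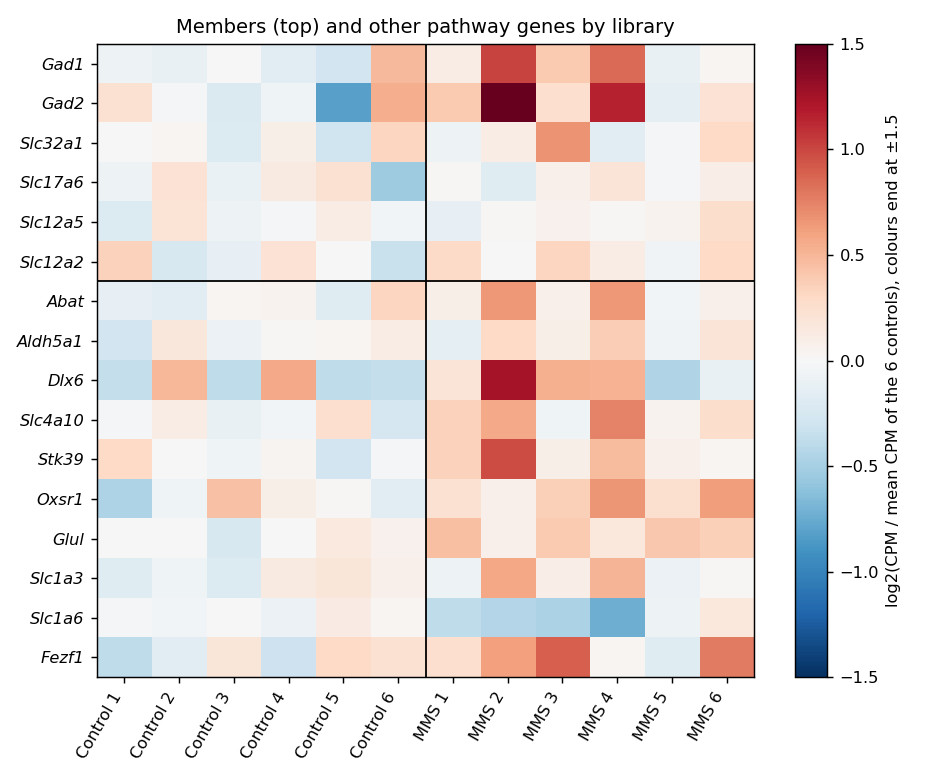
Log2 ratio of each gene's CPM to its mean in the 6 controls (colour, limited to ±1.5) in every library, with 6 of the members above the horizontal line and 10 other pathway genes below it. Gad1, Gad2, Abat and Slc1a3 are all higher in MMS 2 and MMS 4 than in any control, whereas Slc32a1 is not.

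The genes whose pattern was most like that of a member were found by the root mean square difference of log2 CPM over the 12 libraries, after centring on the group means and scaling to an SD of 1. Among 9389 genes with a mean of at least 50 counts, those nearest to Gad1 were Grik3, a kainate receptor subunit (0.33 SD), Cnbp, a nucleic acid binding protein (0.34 SD), and Abat (0.35 SD). Gad2 was 12th nearest to Gad1 (0.42 SD), whereas Slc32a1 had rank 3826 (1.24 SD). Grik3 was at 45.1 and 41.3 CPM in MMS 2 and MMS 4 and at 28.8 to 38.3 CPM in controls. Nearest to Slc17a6 were Acsbg1 (0.32 SD), an acyl-CoA synthetase, Grm2 (0.36 SD), a metabotropic glutamate receptor, and Rbm3 (0.41 SD), a cold-inducible RNA-binding protein. All 3 had their lowest value in control 6, as did Slc17a6. Slc12a5 had no neighbour as close, and its nearest genes were Ogfod3 (0.50 SD), Rasgrf2 (0.51 SD) and Dck (0.54 SD).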

How the data were processed

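Hypothalamic RNA of 12 pups was prepared with the QuantSeq 3' kit and sequenced on an Ion Proton instrument. Per the labels the build was mm10. The authors aligned reads in Torrent Suite and deposited raw counts per gene. What counted the reads, on which annotation and with what use of strand is not given in the sources used here. Without strand, reads in the stretch that Gad1 shares with the antisense gene Gad1os, or Slc32a1 with Gm14205, cannot be assigned to either gene. Neither antisense gene reaches the annotated 3' end of the gene it overlaps. The annotated 3' end of Gad1os lies outside Gad1, and that of Gm14205 lies inside Slc32a1. Pups of a litter were divided between groups, and the litter of a library is not in the labels, so p-values treat pups as independent.

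Libraries were grouped by title. Over 30 within-group pairs the chi-square per degree of freedom was 4.04 to 31.5, so every library counted as separate. Tests of single genes were edgeR's quasi-likelihood F-tests (version 4.0.16, R 4.3.3, robust dispersions, TMM scaling, minimum count 10, minimum total 15), two-sided, with Benjamini-Hochberg adjustment over 13104 genes and a threshold of 0.05. CPM used the same scaling. Intervals are 95% intervals from the same model. The 27 rows whose symbol had become a date (0.175% of counts) were kept unnamed. Alternatives used RLE scaling, no count filter, DESeq2 1.42.0, limma-voom 3.58.1 with and without quality weights, a replicate block, 1 surrogate variable (sva 3.50.0), and libraries left out. The fits were tested on simulated data. Replicate numbers were not used to pair the samples in the main fit, and the labels do not say whether they mark litters. Coordinates are from GENCODE M21, in which 91.1% of symbols were found, and promoter sequences are from RefSeq, found for 7 of 8 members. Members, lists and tests were chosen with earlier results of these data known. Besides the members, the 3 genes of smallest p in each of 6 pathway lists and the 3 most alike genes of 3 members are named. Some genes that this rule picks are not reported here. Neurod2 and other single markers were chosen after their values were seen.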

Additional observations from a re-analysis of the deposited data

Results flagged for a closer look

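Of 24 sets of 6 values screened (8 genes and 4 ratios, for controls and for MMS), 2 had an extreme value whose gap exceeded Dixon's critical ratio, and about 1.2 would do so by chance. Both were control 6, and they are not independent, since the flagged ratio includes the flagged gene. Its Gad1 level of 220 CPM was separated from the next control at 157 CPM by 0.690 of the range of the group. Its ratio of GABA to glutamate genes was 2.50, with the next control at 1.39, a gap of 0.667 of the range. Without control 6 the log2 fold change was 0.58 for Gad1 and 0.88 for Gad2, and the difference of the log2 ratio was 0.50 in place of 0.31.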

How the results depend on the processing

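The number of the 8 genes past the adjusted threshold was 0 under each of 8 other settings and in each of the 12 fits without 1 library. At an unadjusted p under 0.05 the number was 3 (9.08% of all genes). It was 1 without a count filter (8.66%), 1 in limma-voom (9.97%) and 0 with quality weights (5.99%). With 1 surrogate variable (5.27%) or without MMS 2 and MMS 4 (5.03%) it was also 0. Without 1 library it ran from 0 (without control 4, control 5 or MMS 4, at 7.48%, 7.76% and 5.35% of all genes) to 3. Over these fits the share of all genes ran from 5.27% (without MMS 2) to 13.6% (without MMS 5). For the other pathway genes the number was 7, and 3 with the surrogate variable or without MMS 2 and MMS 4. On leaving out 1 library it was 3 (without control 5) to 11 (without MMS 5), where the share over all genes was 7.76% and 13.6%. Over all genes 0 passed the threshold, against 1 without a count filter, 7 in DESeq2, 1 with quality weights, 4 with the surrogate variable, 5 without MMS 2 and MMS 4, and 0 to 1 without 1 library. Slc17a8 changed sign to 0.0043 with the surrogate variable, and Slc17a6 ran from -0.039 (without control 6) to 0.10. The causes were not tested. The difference of the GABA to glutamate ratio was 0.31, and 1.03 when the mean log2 CPM of each class replaced the sum, since the scarce Slc17a7 and Slc17a8 then weigh as much as Slc17a6. The same replicate numbers occur in both groups, and deviations of same-numbered libraries had correlations of -0.05 to 0.12. Such correlations cannot show whether same-numbered pups were littermates. With the replicate block 1 gene passed the threshold over all genes and 0 of the 8. The log2 fold changes were then 0.40 for Gad1 (SE 0.18), 0.65 for Gad2 (SE 0.23) and -1.60 for Slc17a7 (SE 0.46). In the main fit the SEs were 0.19, 0.32 and 0.66. The unadjusted edgeR p of these genes was 0.042, 0.019 and 0.0037 with the block, against 0.031, 0.043 and 0.024 without it. Slc17a7 and Slc17a8 had 301 and 331 counts in all, and counting error and spread between libraries were not separated for them.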
